A study of Mus musculus with 9 samples.

Results

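The keratin genes are described here in neutrophils sorted from chemically induced skin lesions and from the skin around them. Members were all genes whose array name was Krt followed by a digit, so hair keratin-associated proteins (Krtap) and Krtcap genes were left out. This gave 52 keratin genes on 68 probes, of 34797 gene names on the array. A keratin with several probes was given the median of its probes. There were 38 keratins with 1 probe, 12 with 2 probes and 2 with 3 probes.

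Expression was measured on 9 one-color mouse arrays, each hybridized with RNA of Gr-1bright cells, a gate used for neutrophils, pooled from several FVB/N mice. All mice had received the carcinogen DMBA on the back at 6 and 13 weeks of age and the tumor promoter PMA repeatedly from week 1 to week 18-20, so no group came from untreated skin. The groups were skin adjacent to papillomas (papilloma skin, 2 arrays), skin adjacent to tumors (tumor skin, 2 arrays), papillomas, which are precancerous lesions (3 arrays), and tumors, which are squamous cell carcinomas (2 arrays). Per the study's methods, lesions were digested with collagenase, dispase and DNase and the surrounding skin with collagenase alone, so lesion and digestion cannot be told apart in any lesion to skin difference below.

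Keratins are the intermediate filament proteins of epithelial cells and are not known as products of neutrophils. A type I (acidic) and a type II (basic) keratin assemble as partners, and the pair in use follows the cell's layer and state. Krt5 and Krt14 are the pair of the basal epidermal layer, Krt1 and Krt10 that of the layers above it, and Krt6a, Krt6b, Krt16 and Krt17 are induced in wounded, inflamed and hyperproliferative epidermis. Krt8 and Krt18 belong to simple epithelia, Krt4 and Krt13 to mucosa, and further members build the hair shaft and the sheaths around its root. In these mouse arrays 27 keratins lay on chromosome 11, which holds the type I genes, and 25 on chromosome 15, which holds the type II genes and Krt18.

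A few probes carried most of the results, and their sequences, as given with the array's mm9 annotation, are shown to make clear what was hybridized. The first set measured the wound keratins Krt6a, Krt6b and Krt16. Krt6a and Krt6b are near-identical neighbors, so their signals may not be fully separate, and the Krt16 probe holds AATAAA, the letters of the polyadenylation motif, in capitals, as do 10.1% of all probes (13.5% on either strand). For probes at the end of a transcript, 30 of the 60 bases are given.
Krt6a, start 1695 of its transcript, chr15:101520862-101520921, minus strand, first 30 bases: agcaagaagagctacaggcagtgaattctg
Krt6b, start 645, chr15:101509450-101509509, minus strand: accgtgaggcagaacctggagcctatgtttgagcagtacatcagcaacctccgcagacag
Krt6b, start 2139, chr15:101506492-101506551, minus strand, first 30 bases: cttgtgacaacacagtcattagtcctgtgc
Krt16, start 1502, chr11:100107408-100107467, minus strand, last 30 bases: ggtaggctAATAAAgctttttggttgatgc

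The second set measured the hair keratins Krt35, which fell in tumors, and Krt85, which was not called by its median. The probes named Krt85 did not move together, and the probe at start 2081 was annotated to a different stretch of chromosome 15 than the probe at start 2534. It lay closest to the probe named Krt83 (chr15:101263556-101263615, minus strand), while the probe at start 2534 lay at chr15:101346117-101346176. Which gene's transcripts the probe at start 2081 measured was not tested.
Krt35, start 1631, chr11:99953537-99953596, minus strand, first 30 bases: ttccttctgagtgtgttttccctaggttct
Krt85, start 2081, chr15:101261695-101261754, minus strand, first 30 bases: aaactactctaatcacacttcttgggttac

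The third set measured Krt42 and Krt222, the called keratins that belong to none of the role groups above. The Krt222 probe holds 10 copies of CA in a row, in capitals, as do only 71 probes (0.128%) of the array on either strand.
Krt42, start 639, chr11:100128252-100128311, minus strand: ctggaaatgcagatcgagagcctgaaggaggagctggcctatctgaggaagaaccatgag
Krt222, start 1607, chr11:99095480-99095539, minus strand, 30 bases from base 19: tgtaCACACACACACACACACACAcccgga

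Values below are log2 levels from the authors' deposited table unless the scanner files, each array's raw output, are named, and differences are log2 differences. A keratin was called, and is said to have risen or fallen, at an adjusted p of at most 0.05 (limma, Benjamini-Hochberg over all 34797 names), an absolute log2 difference of 1 or more, and a level that averaged 6 or more over the arrays, which 40 of the 52 keratins reached. The number of arrays limits the precision, and the p-values measure the spread between arrays of pooled cells. All 9 called keratins were well above background on all 9 arrays, while Krt12, Krt40 and Krt76 were above it on none of the 6 arrays whose spike-in controls responded fully. The other 3 arrays, papilloma skin 1, tumor skin 1 and tumor 1, all on the first of 3 slides, had a flatter spike-in slope (0.678 to 0.894, against 1.04 to 1.06) and 90.7 to 95% of probes above background, against 43.5 to 63.5%. The deposited column of papilloma skin 1 resembled the scanner file of tumor 2 (rank correlation 0.923) more than its own (0.587), and that of tumor 1 also resembled the tumor 2 file (0.946) more than its own (0.825). Within the papilloma group, the column of papilloma 2 was closest to the papilloma 3 file (0.981, against 0.934 for its own) and that of papilloma 3 to the papilloma 2 file (0.958, against 0.94). Papilloma 2 and papilloma 3 share a group and correlated at 0.934 and 0.94 with their own files, so they were kept. The main results are given with and without the papilloma skin 1 and tumor 1 columns. The closest file of papilloma skin 1 was of another group, and tumor 1 had a lower correlation with its own file (0.825). The values from the scanner files are given beside them. Without those columns, papilloma skin and tumor each keep only 1 array, as a group of 2 does when 1 of its arrays is left out. Calls kept, gained or lost in such fits rest on the spread within the other groups.

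In papillomas against papilloma skin, 3 of 52 keratins rose and none fell, where 2.43% of all names rose and 1.17% fell. All 3 were wound keratins, Krt6b, Krt6a and Krt16. Without a test, every papilloma array lay above every papilloma skin array for 10 keratins and below for 11, where 19.9% and 18.4% of all names did so, and the median difference of the 52 keratins was 0.17, against -0.01 over all names. In tumors against tumor skin, 6 keratins rose (Krt6b, Krt6a, Krt14, Krt16, Krt23 and Krt42) and 3 fell (Krt35, Krt28 and Krt222), where 2.75% of all names rose and 1.61% fell. Tumor arrays lay above both tumor skin arrays for 14 keratins and below for 11, where 26.2% of all names did so in each direction. The median keratin difference was 0.05, against -0.01 over all names, so the calls came from single members. Of these 9 tumor calls, 7 lay on chromosome 11 (4 higher and 3 lower) and 2, both higher, on chromosome 15. In the scanner files, 0% of names were called in either comparison, keratins included. At an unadjusted p under 0.05 the scanner files gave 4 keratins higher and 7 lower in papillomas, where 9.65% of all names passed in either direction, and 4 higher and 1 lower in tumors, where 3.23% did.

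**Figure D1:**
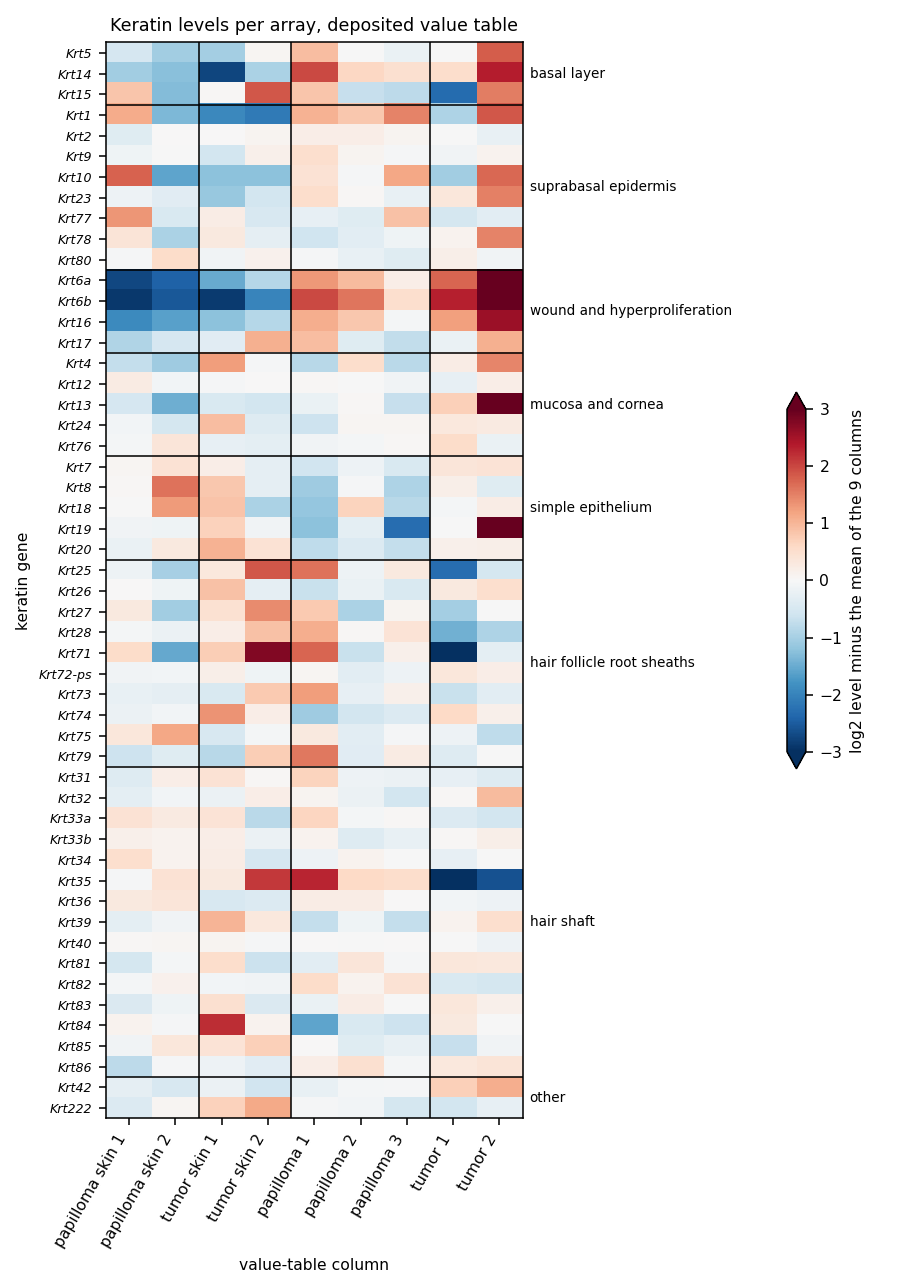
Log2 level of each of the 52 keratins (rows, by role) in each of the 9 deposited columns, drawn as the difference from the keratin's mean over the 9 columns (color, log2, cut at -3 and 3). Krt6a, Krt6b and Krt16 are below their mean in the 4 skin columns and above it in tumors, and Krt35 is farthest below its mean in the tumor columns (levels 5.98 and 6.99).

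Krt6b, Krt6a and Krt16 were higher in lesions than in skin at both stages, and Krt17 was not. Krt6b read 6.40 and 6.76 in papilloma skin, 6.43 and 7.33 in tumor skin, 11.29, 10.90 and 9.81 in papillomas, and 11.63 and 13.18 in tumors. The lesion and skin arrays were thus separate at both stages, and tumor 2 was the highest of all. Krt6b rose by 4.08 (SE 0.55, 17.0-fold, adjusted p = 0.0047) in papillomas and by 5.53 (SE 0.60, 46.2-fold, adjusted p = 0.0024) in tumors.

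Krt6a, its neighbor and partner of Krt16 in the same filaments, read 6.01 and 6.31 in papilloma skin and 7.21 and 7.87 in tumor skin. It read 10.03, 9.68 and 8.93 in papillomas, and 10.48 and 12.10 in tumors. Again no lesion array overlapped a skin array. Krt6a rose by 3.38 (SE 0.49, 10.45-fold, adjusted p = 0.00603) in papillomas and by 3.74 (SE 0.54, 13.4-fold, adjusted p = 0.00628) in tumors.

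The 2 Krt6b probes printed above both rose at both stages but by different amounts. The probe at start 645, inside the coding part of the filament rod, gave 3.29 in papillomas and 3.83 in tumors, close to the single Krt6a probe. The probe at start 2139, near the transcript's end, gave 4.88 and 7.23. Which share of the probe at start 645 came from Krt6a was not tested.

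Krt16, the type I wound keratin, read 9.15 and 9.42 in papilloma skin, 9.83 and 10.19 in tumor skin, 12.14, 11.88 and 10.99 in papillomas, and 12.28 and 13.61 in tumors. It rose by 2.38 (SE 0.43, 5.21-fold, adjusted p = 0.0155) in papillomas and by 2.94 (SE 0.47, 7.67-fold, adjusted p = 0.00938) in tumors. Krt17, induced with it in wounded skin, was not called: papillomas read 11.42, 10.13 and 9.76 against 9.59 and 9.99 in papilloma skin (difference 0.65, adjusted p = 0.598), and tumors 10.31 and 11.58 against 10.16 and 11.58 in tumor skin (0.08, adjusted p = 0.958). The wound group therefore had 3 of 4 members called in each comparison, with a median difference of 2.88 in papillomas and 3.34 in tumors, and Krt17 overlapped between lesion and skin at both stages.

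Without the papilloma skin 1 and tumor 1 columns, Krt6b and Krt6a kept their calls (3.90 and 3.23 in papillomas, 6.31 and 4.55 in tumors), while Krt16 kept its call in tumors (3.60) and lost it in papillomas (2.25, adjusted p = 0.0695). Krt16 in papillomas also lost its call when papilloma skin 1, papilloma skin 2 or papilloma 2 was left out singly (2.25, 2.52 and 2.28), and in tumors when tumor 2 was left out (2.27, adjusted p = 0.0553). With slide as a term, only Krt6b stayed called in tumors (Krt6a 3.39, adjusted p = 0.0759, and Krt16 2.53, adjusted p = 0.0892). In that fit 203 of all names were called in tumors, against 1516 without the term. Within slide 1, papilloma 1 exceeded papilloma skin 1 by 4.89 for Krt6b, 4.02 for Krt6a and 2.99 for Krt16. Within slide 2, papilloma 2 exceeded papilloma skin 2 by 4.13, 3.36 and 2.45, and within slide 1, tumor 1 exceeded tumor skin 1 by 5.20, 3.26 and 2.46. The direction was the same within each slide that held both groups, but each of these pairs includes a column that resembled another array's file (papilloma skin 1, papilloma 2 or tumor 1). In the scanner files the same slide 1 difference of tumor 1 from tumor skin 1 was 3.54 for Krt6b, 2.50 for Krt6a and 0.35 for Krt16.

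The scanner files gave Krt6b, Krt6a and Krt16 the same direction with wider spread. After quantile normalization Krt6b read 5.82 and 6.50 in papilloma skin, 6.70 and 6.81 in tumor skin, 12.16, 9.65 and 10.66 in papillomas, and 10.24 and 13.08 in tumors. The lesion and skin arrays did not overlap there either. The Krt6b difference was 4.67 in papillomas (SE 0.96, adjusted p = 0.27, limma) and 4.91 in tumors (SE 1.06, adjusted p = 0.955, limma), so neither was called. Krt6a differed by 2.36 (adjusted p = 0.49) and 3.76 (adjusted p = 1) and Krt16 by 2.71 (adjusted p = 0.482) and 2.10 (adjusted p = 1).

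**Figure D2:**
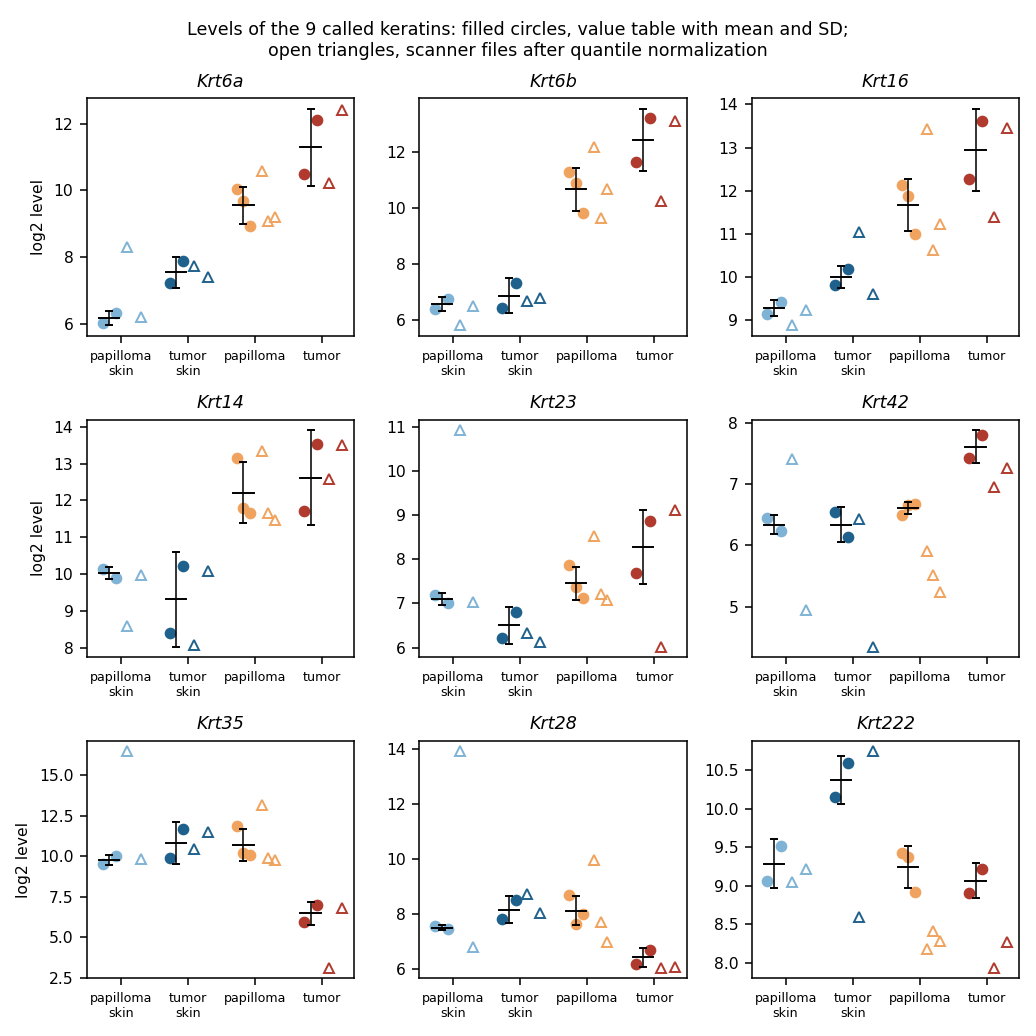
Log2 level (vertical axis) of the 9 called keratins by group, with filled circles for the deposited columns, bars for their mean and SD, and open triangles for the quantile-normalized scanner files. Lesion and skin circles are separate for Krt6a, Krt6b and Krt16 at both stages, and the scanner value of Krt35 in papilloma skin 1 (16.49) is the highest triangle of its panel.

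Of the 3 basal-layer keratins, 1 was called. Krt14, the type I basal keratin, read 10.14 and 9.91 in papilloma skin, 8.42 and 10.23 in tumor skin, 13.16, 11.80 and 11.66 in papillomas, and 11.71 and 13.52 in tumors. Both lesion groups lay above their skin. Krt14 rose by 3.29 (SE 0.77, 9.79-fold, adjusted p = 0.035) in tumors, and in papillomas the difference of 2.18 (SE 0.70) was not called (adjusted p = 0.113). The tumor call was narrow: it was lost without tumor 1 and papilloma skin 1 (4.20, adjusted p = 0.0633), with slide as a term (3.34, adjusted p = 0.177), and when any of tumor 2, tumor skin 1, either papilloma skin array, papilloma 2 or papilloma 3 was left out (2.38 to 3.29, adjusted p 0.05004 to 0.196).

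Krt5, the type II partner of Krt14, read 9.60 and 9.06 in papilloma skin, 9.07 and 10.15 in tumor skin, 11.01, 10.08 and 9.90 in papillomas, and 10.08 and 11.92 in tumors. It was not called in either comparison (1.00, adjusted p = 0.369, and 1.39, adjusted p = 0.204), although the papilloma arrays all lay above papilloma skin. Krt15, a basal keratin also used as a marker of the hair follicle bulge, overlapped between lesion and skin at both stages (0.01, adjusted p = 0.997, and -1.34, adjusted p = 0.549). Its tumor arrays were far apart, at 7.21 and 11.04. The basal partners thus did not share a call in any comparison.

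Among the 8 keratins of the suprabasal group, only Krt23, a type I keratin inducible in several epithelia, was called. It read 7.19 and 7.01 in papilloma skin, 6.21 and 6.80 in tumor skin, 7.87, 7.38 and 7.12 in papillomas, and 7.69 and 8.87 in tumors. In the scanner files it read 6.34 and 6.12 in tumor skin and 6.02 and 9.11 in tumors, so tumor 1 was not higher there. Within slide 1, the difference of tumor 1 from tumor skin 1 was 1.48 in the deposited table and -0.31 in the scanner files. In the deposited table Krt23 rose by 1.77 (SE 0.40, 3.42-fold, adjusted p = 0.0303) in tumors and differed by 0.35 (adjusted p = 0.642) in papillomas. Without tumor skin 1, tumor skin 2 or tumor 2 singly the tumor difference was 1.48, 2.07 and 1.19 and was not called, and with slide as a term it was 1.66 (adjusted p = 0.182).

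Krt1 and Krt10, the filament pair of differentiating epidermis, varied widely within papilloma skin and within tumors. Krt1 read 8.73 and 6.27 in papilloma skin, 5.69 and 5.48 in tumor skin, 8.66, 8.41 and 9.10 in papillomas, and 6.70 and 9.46 in tumors. Krt10 followed the same order of high and low arrays in papilloma skin (10.28 and 6.93) and in tumors (7.47 and 10.22). Neither was called (Krt1 1.22, adjusted p = 0.473, and 2.50, adjusted p = 0.136, and Krt10 0.42, adjusted p = 0.868, and 1.57, adjusted p = 0.416).

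The columns that stood apart decided these values. Without papilloma skin 1 and tumor 1, which leaves 1 array each in papilloma skin and tumor, the Krt1 difference was 2.45 in papillomas and 3.88 in tumors. That of Krt10 was then 2.1 in papillomas and 2.95 in tumors. In the scanner files, Krt1 read 3.79 and 6.97 in papilloma skin and 3.69 and 3.17 in tumor skin. It read 8.57, 10.09 and 8.10 in papillomas there, and 3.04 and 10.53 in tumors. Krt2, a keratin of late epidermal differentiation, stayed within 0.34 of its skin in both comparisons. Krt77, Krt78 and Krt80 differed by -0.46 to 0.79 and were not called.

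No mucosal keratin was called in the main fit of all 9 columns. Krt13, the type I mucosal keratin, which also appears in chemically induced skin lesions of mice, read 7.17 and 6.22 in papilloma skin, 7.24 and 7.13 in tumor skin, 7.49, 7.73 and 6.995 in papillomas, and 8.40 and 10.78 in tumors. Both tumor arrays were above all 7 others. The tumor difference of 2.41 (SE 0.67) came close to the threshold (adjusted p = 0.0592), and the difference of tumor from papilloma was 2.19 (adjusted p = 0.167). Its 2 probes gave 1.95 (adjusted p = 0.032, called by itself) and 2.87 (adjusted p = 0.0835). With slide as a random block the tumor difference was 2.68 (adjusted p = 0.0434, limma) and was called. With slide as a term it was 2.01 (adjusted p = 0.267, limma) and was not. Without tumor 1, which leaves 1 tumor array, the tumor difference was 3.60. Krt4, its type II partner, differed by 0.52 and 0.24 and was not called.

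The 5 simple-epithelium keratins differed from the wound keratins in direction in papillomas, but none was called. All 5 differences were below 0, from -1.51 to -0.64. For 4 of the 5 every papilloma array lay below both papilloma skin arrays, where 18.4% of all names did so. Krt20, 1 of these 4, had a mean level of 5.84, under the level minimum. Krt8 read 6.48 and 8.09 in papilloma skin and 5.39, 6.41 and 5.51 in papillomas (-1.51, adjusted p = 0.143). Krt18, its type I partner, read 9.34 and 10.62 against 8.18, 10.02 and 8.52 (-1.07, adjusted p = 0.421). Krt7 differed by -0.64 (adjusted p = 0.104) and Krt20, the keratin of gut epithelium, by -0.69 (adjusted p = 0.118). Krt20 was not above background on any papilloma array, so its difference has no measured level on that side. In tumors the same group had a median difference of 0.13, with Krt8 at -0.35 and Krt18 at 0.13.

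Krt19, found in simple epithelia and in the hair follicle, had the widest range of this group. It read 7.15 and 7.13 in papilloma skin, 7.95 and 7.17 in tumor skin, 6.03, 6.96 and 4.97 in papillomas, and 7.26 and 10.76 in tumors. The tumor value was set by 1 array, tumor 2. The difference of tumor from papilloma was 3.03 (SE 0.94, adjusted p = 0.198), of papilloma from its skin -1.15 (adjusted p = 0.542) and of tumor from its skin 1.45 (adjusted p = 0.408).

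**Figure D3:**
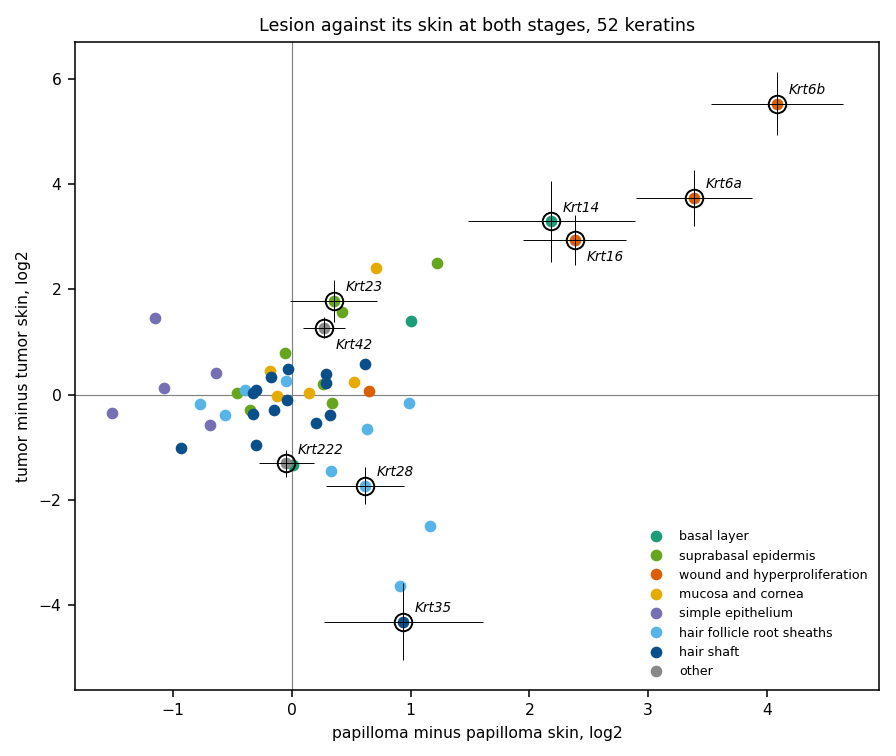
Difference of papillomas from papilloma skin (horizontal axis, log2) against that of tumors from tumor skin (vertical axis, log2) for the 52 keratins, colored by role, with circled points for keratins called at either stage and lines for their standard errors. The wound keratins Krt6a, Krt6b and Krt16 lie at the upper right and Krt35 at the lower right.

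In tumors the called hair keratins moved opposite to the called wound keratins. Krt35, a type I keratin of the hair matrix and cuticle, read 9.56 and 10.02 in papilloma skin, 9.89 and 11.72 in tumor skin, 11.88, 10.19 and 10.11 in papillomas, and only 5.98 and 6.99 in tumors. Both tumor arrays lay below all 7 others. Krt35 fell by 4.32 (SE 0.74, 20.0-fold lower, adjusted p = 0.0116) in tumors, while papillomas differed from their skin by 0.94 (SE 0.67, adjusted p = 0.48). Without tumor 1 and papilloma skin 1 the tumor difference was -3.82 (adjusted p = 0.0897), without tumor 1 alone -3.82 (adjusted p = 0.0622) and without tumor 2 alone -4.82 (adjusted p = 0.0504), so each tumor array was needed for the call. With slide as a term it was -4.26 (adjusted p = 0.111), and within slide 1, tumor 1 lay 3.91 below tumor skin 1.

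Krt28, a type I keratin of the inner root sheath, read 7.55 and 7.44 in papilloma skin, 7.81 and 8.49 in tumor skin, 8.69, 7.63 and 8.01 in papillomas, and 6.17 and 6.67 in tumors. It fell by 1.73 (SE 0.36, 3.32-fold lower, adjusted p = 0.0237) in tumors, and both of its probes fell, by 1.09 and by 2.37. The call was lost without tumor 1 and papilloma skin 1 (-1.48, adjusted p = 0.135), without tumor 1 (-1.48), tumor 2 (-1.98) or tumor skin 2 (-1.39), and with slide as a term (-1.58, adjusted p = 0.174). Krt25 and Krt71, which are made with it in the inner root sheath, had tumor differences of -2.50 (adjusted p = 0.0806) and -3.63 (adjusted p = 0.104) and were not called, although both tumor arrays lay below both tumor skin arrays. Krt27 differed by -1.45 (adjusted p = 0.203). Krt79, of the follicle's outer duct, differed by 0.98 in papillomas and -0.17 in tumors and was not called.

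Of the 10 root sheath keratins, 1 fell in tumors and none was called in papillomas, with medians of -0.53 and 0.47. Of the 15 hair shaft keratins, 1 fell in tumors and none was called in papillomas, with medians of -0.11 and -0.04. The hair shaft median thus stayed near that of all names, and Krt35 was the only shaft keratin called.

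Krt85, a type II keratin of the hair shaft, depended on the probe. Its median over 3 probes differed by -0.96 in tumors (adjusted p = 0.0486) and missed the size limit. The probe at start 2081, annotated beside the Krt83 probe, read 9.79 and 10.05 in tumor skin and 6.57 and 6.52 in tumors. It fell by 3.37 (adjusted p = 0.0037), and whether this is a fall of Krt85 was not tested. The probe at start 2534 differed by 0.20 (adjusted p = 0.567) and was not called, so these probes did not share a call. Krt36, also on 3 probes, differed between the skins by -0.92 to 0.24 by probe.

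In the scanner files the hair keratins were set by papilloma skin 1. That array was the highest of 9 for 9 of 10 root sheath and 14 of 15 hair shaft keratins. Krt35 read 16.49 there, against 9.84 in papilloma skin 2, 10.43 and 11.49 in tumor skin, 13.21, 9.90 and 9.75 in papillomas, and 3.13 and 6.80 in tumors. Papilloma skin 1 exceeded papilloma skin 2 by a median of 7.26 over the root sheath keratins and 4.89 over the hair shaft keratins in the scanner files, against 0.09 and -0.19 in the deposited table. As a consequence, Krt35 in papillomas within slide 1 was 2.32 above its skin in the deposited table and 3.28 below it in the scanner files (-3.28), whereas in tumors it was lower in both (-3.91 and -7.30).

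The mean scanner level of the 15 hair shaft keratins was 11.76 in papilloma skin 1, 9.10 in tumor skin 1 and 8.47 in papilloma 1, all on slide 1, and 5.69 to 6.60 on the other 6 arrays, which include tumor 1 of the same slide (5.69). Melanocyte markers, a list of 5 genes of the pigment cells that sit in hair follicles, were highest on the same 3 arrays (11.03, 8.95 and 9.84, against 5.07 to 8.43). Their part in the hair keratin values was not tested.

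**Figure D4:**
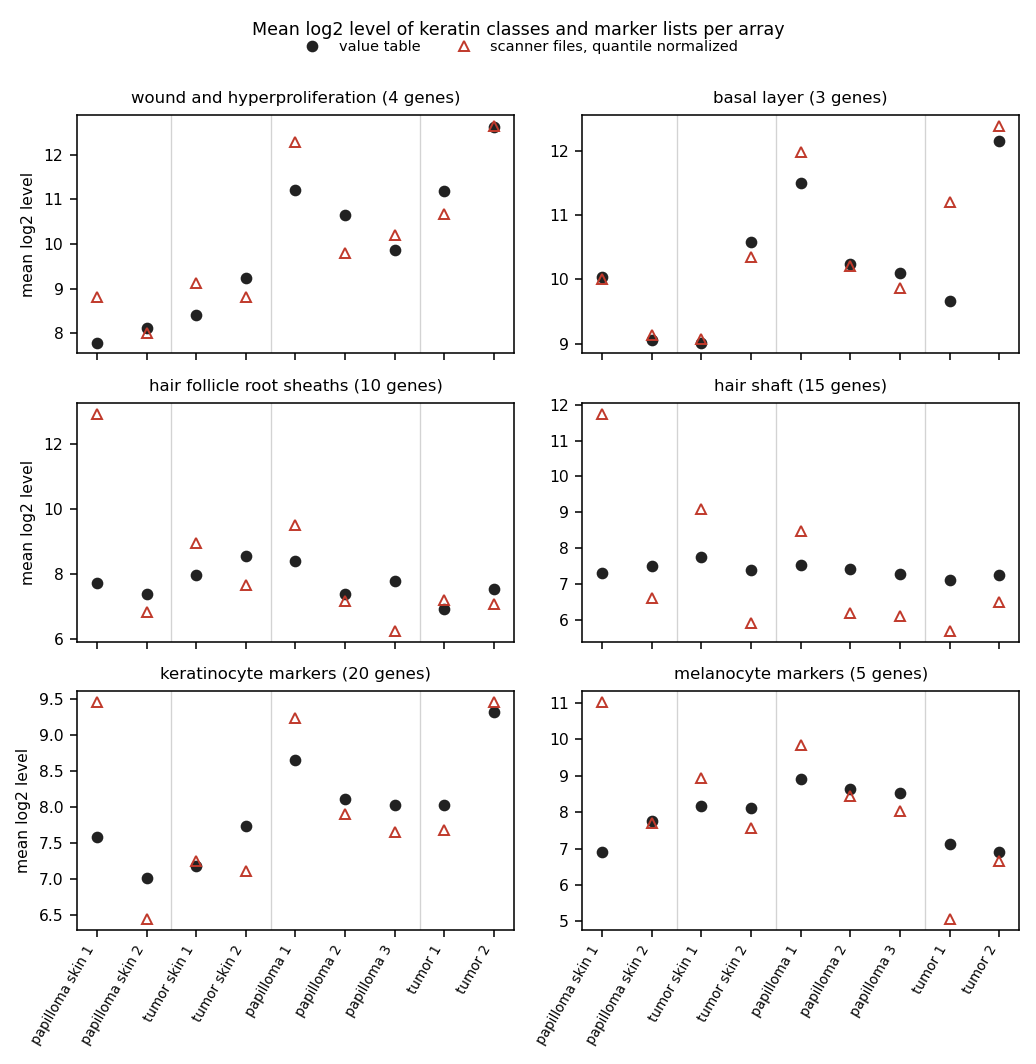
Mean log2 level (vertical axis) of 4 keratin groups and 2 marker lists on each of the 9 arrays, with black circles for the deposited table and open red triangles for the quantile-normalized scanner files. The mean of the wound keratins is higher in lesions in both sources, while the hair keratins of papilloma skin 1 are high in the scanner files alone (12.95 and 11.76, against 7.73 and 7.31).

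Krt42, a type I keratin described in the nail, read 6.45 and 6.23 in papilloma skin, 6.54 and 6.14 in tumor skin, 6.49, 6.66 and 6.67 in papillomas, and 7.42 and 7.80 in tumors. It rose by 1.27 (SE 0.19, 2.42-fold, adjusted p = 0.00775) in tumors and differed by 0.27 (adjusted p = 0.436) in papillomas. The rise came from the probe printed above, at start 639 (1.97, adjusted p = 0.0377), and the other probe, at start 20, differed by 0.57 (adjusted p = 0.284). The call was lost without tumor 2 (1.09, adjusted p = 0.0628), with slide as a term (1.20, adjusted p = 0.104) and at a level minimum of 7.

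Krt222, a keratin-like gene, read 9.06 and 9.51 in papilloma skin, 10.15 and 10.60 in tumor skin, 9.42, 9.37 and 8.92 in papillomas, and 8.90 and 9.22 in tumors. It fell by 1.31 (SE 0.25, 2.48-fold lower, adjusted p = 0.018) in tumors. Both tumor skin arrays were above the other 7 by this median over probes. Its 2 probes read far apart, and neither was called alone: the CA-repeat probe fell short of the threshold (-1.20, adjusted p = 0.0691), and the probe at start 2439 (-1.42, adjusted p = 0.0405) was under the level minimum and above background on 3 of 9 arrays. On the CA-repeat probe alone, papilloma skin 2 (14.67) lay above both tumor skin arrays (14.63 and 14.53). Probes with as many CA copies had a median log2 level of 13.84, against 6.07 over all probes, and the Krt222 probe read 13.10 to 14.67, and whether its level comes from Krt222 transcripts was not tested. The call was lost without tumor 1 and papilloma skin 1 (-1.15, adjusted p = 0.0862), and without tumor 1, tumor 2 or tumor skin 2 (-1.15, -1.47 and -1.09). In the 7 remaining columns the tumor group held only 1 array, tumor 2, so no count of keratins called there is given.

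Tumors were also set against papillomas directly, which uses the same tumor arrays as the comparison with tumor skin. Here 1 keratin rose and 1 fell, where 0.147% of all names rose and 0.46% fell. Krt42 rose by 1.00 (SE 0.18, 2.004-fold, adjusted p = 0.0487) and Krt35 fell by 4.24 (SE 0.67, 18.9-fold lower, adjusted p = 0.033). Without tumor 1 and papilloma skin 1, which leaves 1 tumor array, the differences were 1.19 and -3.74, and neither call was kept. With slide as a term neither was called (0.96, adjusted p = 0.308, and -4.17, adjusted p = 0.235), but there no name of all 34797 was called. The wound keratins were not called, at 1.74 for Krt6a (adjusted p = 0.167), 1.74 for Krt6b (adjusted p = 0.206) and 1.28 for Krt16 (adjusted p = 0.23). In the deposited table both tumor arrays lay above the 3 papilloma arrays for each of them, as for 15 of all 52 keratins. The share of all names that did so was not counted. In the scanner files this held for 0 of the 4 wound keratins. Krt6b read 10.24 in tumor 1 there, below 12.16 in papilloma 1.

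Between the skins, no keratin was called in tumor skin against papilloma skin, where 0.195% of all names rose and 0.181% fell. At an unadjusted p under 0.05, 6 of 52 keratins were higher and 2 lower, where 22.2% of all names passed in either direction. Krt6a was 1.38 higher in tumor skin (SE 0.54, adjusted p = 0.192) and Krt1 was 1.92 lower (adjusted p = 0.268). Krt36 had the lowest adjusted p, 0.046, with a difference of -0.77 that missed the size limit. Both tumor skin arrays lay above both papilloma skin arrays for Krt6a, as for 15 of the 52 keratins. The share of all names that did so was not counted. In the scanner files Krt6a overlapped, at 8.29 and 6.21 in papilloma skin and 7.73 and 7.41 in tumor skin. Krt1 averaged 5.38 in papilloma skin and 3.43 in tumor skin there.

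Whether a keratin's lesion difference itself differed between the stages was tested as the tumor difference minus the papilloma difference. No keratin was called, where 0.0891% of all names were. At an unadjusted p under 0.05, 4 of 52 keratins had a larger and 6 a smaller difference in tumors, where 14.1% of all names passed in either direction. Krt35 had the lowest adjusted p (-5.26, SE 1.00, adjusted p = 0.108), followed by Krt28 (-2.35, SE 0.49, adjusted p = 0.13). For Krt6b the stage difference was 1.45 (SE 0.82, adjusted p = 0.466), for Krt6a 0.36 (SE 0.73, adjusted p = 0.864) and for Krt14 1.11 (SE 1.04, adjusted p = 0.67).

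Keratin filaments end in desmosomes and hemidesmosomes, and 21 genes of these junctions, such as desmoplakin (Dsp), plakophilins and plectin, were examined. None was called in papillomas (median 0.32), and 1 of 21 rose in tumors (median 0.51), where 2.75% of all names rose. This was periplakin (Ppl), which read 7.50 and 6.64 in papilloma skin, 6.49 and 7.11 in tumor skin, 7.93, 7.44 and 7.29 in papillomas, and 8.10 and 9.89 in tumors (2.19, SE 0.56, adjusted p = 0.0443). Of 51 hair keratin-associated proteins, which cross-link hair keratins, 1 fell in papillomas and 3 fell in tumors, where 1.17% and 1.61% of all names fell. Their medians were -0.23 and -0.15, and 26 of them reached the level minimum.

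Since keratins are epithelial products, markers of keratinocytes other than keratins were read on the same arrays. Of 20 such markers, 11 were above background on all 6 arrays with a full spike-in response, and each was above it on at least 1. Their mean log2 level was 7.58 and 7.01 in papilloma skin, 7.18 and 7.73 in tumor skin, 8.66, 8.11 and 8.03 in papillomas, and 8.02 and 9.32 in tumors. By this mean, which Sprr1a and Sprr1b raise most in lesions, the lesion arrays were above the skin arrays, and tumor 2 was again the highest. In the scanner files this was not so: their mean was 9.46 and 6.45 in papilloma skin, 7.24 and 7.11 in tumor skin, 9.23, 7.90 and 7.65 in papillomas, and 7.68 and 9.46 in tumors. Papilloma skin 1 was there above all 3 papillomas. In the deposited table, in papillomas 3 of 20 rose (Cldn1, Sprr1a and Sprr1b) and none fell, and in tumors 2 rose (Sprr1a and Sprr1b). Of all names, 2.43% rose in papillomas and 2.75% in tumors. The median difference of the 20 markers was 0.61 in both comparisons. Every papilloma array lay above papilloma skin for 8 of the 20, and every tumor array above tumor skin for 9, where 19.9% and 26.2% of all names did so.

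Sprr1a and Sprr1b, cornified-envelope proteins induced with Krt6 and Krt16 in stressed epidermis, rose by 3.67 and 4.02 in papillomas and by 5.08 and 6.12 in tumors. Sprr1a read 6.82 and 6.60 in papilloma skin, 6.43 and 7.54 in tumor skin, 11.08, 10.25 and 9.82 in papillomas, and 11.13 and 12.99 in tumors. Loricrin (Lor) and involucrin (Ivl), markers of terminally differentiated epidermis, read 5.60 to 7.15 and 5.60 to 6.76 over the 9 arrays and were not called. Lor read 7.10, 7.15 and 6.66 in papillomas, all above papilloma skin (6.03 and 5.93), and overlapped between tumors and tumor skin. Ivl averaged under the level minimum, so it could not be called. The part of keratinocyte RNA in the keratin values was not tested, and fewer cells of a type and less RNA per cell cannot be told apart in such pooled samples.

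The 16 neutrophil markers were above background on all 6 full-response arrays, with a mean log2 level of 14.06 and 14.09 in papilloma skin, 14.65 and 14.42 in tumor skin, 12.96, 13.12 and 13.13 in papillomas, and 13.56 and 13.38 in tumors. Of these, 5 fell in papillomas (Camp, Ngp, Ltf, Mpo and Mmp8) and 6 in tumors (Camp, Ngp, Ltf, Ly6g, Mmp8 and Lcn2). Most of these encode granule proteins, and S100a8, a calcium-binding protein of neutrophils, read 17.88 to 18.22 on all 9 arrays. Of 8 endothelial markers, 6 rose in papillomas and 3 in tumors, and of 8 fibroblast markers 1 rose in papillomas, and 1 rose and 1 fell in tumors. Of 5 melanocyte markers, 4 rose in papillomas (median 1.71) and 2 fell in tumors, but in the scanner files all 5 were lower in papillomas (median -0.60), without a call. Of 9 hair matrix markers none was called. Of all names, 2.43% rose and 1.17% fell in papillomas, and 2.75% rose and 1.61% fell in tumors. The part of these cell types in the keratin values was not tested.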

How the data were processed

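RNA of sorted, pooled neutrophils was hybridized to 9 one-color Agilent arrays, annotated to mm9. The authors deposited a table of log2 values, which per their methods would follow quantile normalization in limma and ComBat for the chip, but the table does not state which of these steps it holds, and the limma version was not given in the sources used here. The deposited scanner files hold each spot's intensity (processed signal, Cy3), already background-corrected by Feature Extraction. All 9 table columns matched a sample by label.

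From these, the table's probes were joined to gene names by probe name and reduced to the median per name. Groups were compared in 1 linear model of 4 groups without covariates (lmFit and eBayes, limma 3.58.1, R 4.3.3, 5 residual degrees of freedom), with the authors' limits for a call. The code was tested on simulated data. Levels were set against background by the scanner's own flag. Tables were handled with the data.table package (version 1.17.8) in R and with pandas 2.3.3 and numpy 2.4.6 in Python 3.11.15, and figures were drawn with matplotlib 3.10.9. Keratins named in the text were a fixed list of epidermal and simple-epithelium members, each called member, the keratin of highest mean level in each role group without a call, and keratins whose probes differed by more than 1. The members, role groups and marker lists were chosen with earlier results of these data known. Alternatives varied the level minimum, the summary over probes, slide, replicate number, columns, background filter and source (scanner files with quantile, 75th percentile or normexp processing, offset 50), and left out each array in turn. Of 52 keratin names, 51 had an accession in the RefSeq gene table, and 49 carried its symbol, with Krt83 listed there as Krt87 and Krt72-ps as Krt72. Names are those of the array. Promoter sequences were not used here. The values of 1 Krt85 probe by itself are not reported here.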

Additional observations from a re-analysis of the deposited data

How the results depend on the processing

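All differences of called keratins kept their direction in every alternative run. Krt6a and Krt6b kept both calls in the deposited table under every alternative and left-out column, except Krt6a in tumors with slide as a term. The count in papillomas (3) became 0 in each scanner-file alternative, as did the counts in tumors (9) and in tumors against papillomas (2). No name at all was called in these alternatives. These were quantile, quantile with slide, 75th percentile, normexp, and quantile without arrays of flat spike-in slope, plus quantile without papilloma skin 1 and without it and tumor 1, the last 2 chosen after seeing the data. With the 75th percentile the median of all names shifted by -0.40 in papillomas, -0.12 in tumors and 0.31 between the lesions. In the deposited table, the tumor count was 1 with slide as a term and 4 with the replicate number as a block. Of all 34797 names, 203 and 582 were called there, against 1516 with neither. The tumor calls were 7 higher and 3 lower with slide as a random block and with each probe tested by itself. They were 6 higher and 4 lower with the mean over probes, 5 and 3 at a level minimum of 7, and 6 and 2 among probes above background. The count of tumors against papillomas was 1 at a level minimum of 7, with slide as a random block and among probes above background. It was 0 with slide as a term and with the replicate block, where 0 and 9 of all names were called, against 211 with neither. With each probe tested by itself it was 3, all lower (Krt28, Krt35 and the probe named Krt85 at start 2081), and the Krt42 call was lost. Leaving out single columns gave 2 to 3 calls in papillomas, 2 to 9 in tumors (2 without tumor 2) and 0 to 2 between the lesions. The cause was not tested. Tumors lost all 3 lower calls without tumor 1 or tumor 2. Deviations of same-numbered arrays correlated at 0.14 and 0.431 for papillomas with papilloma skin and at 0.31 for tumors with tumor skin. Same-numbered arrays of the other group pairs correlated from -0.932 to -0.074. In a group of 2 arrays the deviations mirror each other, so the 12 pairs are not separate checks. Whether replicate numbers pair the arrays cannot be told from them, and the lower counts with the block stand beside the others. The number of arrays, 2 or 3 a group, limits the precision of all counts.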
